A study of Mus musculus with 6 samples.

Results

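Caveolae are small flask-shaped pits of the plasma membrane, and the 7 genes described here encode their coat and neck: the caveolins Cav1 and Cav2, the cavins Cavin1, Cavin2 and Cavin3, the neck ATPase Ehd2 and the membrane-bending protein Pacsin2. They were taken as a named list of 7 of the 55471 gene identifiers in the table, because Cav2 was lower in the libraries labelled Bap1 cKO. The members were thus chosen by RPKM values of the contrast between the groups, and the values of all 7 in that contrast are a description with no test. All 7 had a mean of at least 1 RPKM (reads scaled to gene length and library depth), the minimum set for testing, which 12223 genes reached. Cavin2 reached it through the WT libraries alone.

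Polyadenylated RNA of endosteal mesenchymal stromal cells, which line the inner bone surface, was sequenced from C57BL/6J mice in 6 libraries. The 3 Bap1 WT libraries carried the floxed allele (Bap1fl/fl), and the 3 Bap1 cKO libraries carried the same floxed allele together with Prx1-cre, a Cre recombinase under a promoter active in limb mesenchyme. Bap1 encodes a deubiquitinase of histone H2A, and the series title places the study in the support of lymphocyte formation by these cells. The labels name Cre in the cKO group only, so the presence of Cre and the loss of Bap1 cannot be told apart, and they state neither the age of the mice nor whether each library had its own animal. The p-values therefore measure the spread between these libraries, which may be technical.

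Bap1 itself had 22.8, 22.72 and 24.01 RPKM in the 3 WT replicates, against 28.27, 25.16 and 22.99 RPKM in the 3 cKO replicates (limma adjusted p = 0.29). A value summed over the gene does not show whether floxed exons were removed, so it does not check the labels. Depths estimated from the low values ran from 13700000 to 15700000 fragments in 5 libraries and reached 23400000 in cKO replicate 3. The groups differed widely: limma, with Benjamini-Hochberg adjusted p under 0.05 as the threshold, called 34.7% of the 12223 genes higher and 26.5% lower in cKO. The median log2 difference over these genes was 0.09, and −0.01 after scaling by trimmed means of log ratios (TMM). The higher genes were 56.7% of all calls, and 48.6% after TMM scaling.

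The labelled cell type was examined through its markers. Of 11 tested mesenchymal stromal markers 7 fell and 1 rose, beside 26.5% and 34.7% of all genes tested. The rise was a call lost without any 1 of the WT libraries. The list summed to 2433 to 2581 RPKM in the WT and 126 to 233 in the cKO libraries. Of those that fell, Col1a2, Col3a1, Eng and Thy1 went from WT means of 976, 263, 39.4 and 12.5 RPKM to cKO means of 12.4, 3.12, 0.723 and 0.0733 RPKM. Eng and Thy1 reached the minimum for testing through the WT libraries alone. Lepr reached at most 0.14 RPKM, while Prrx1 (68.16 to 83.75 and 39.46 to 72.24 RPKM) and Twist1 (16.11 to 17.74 and 14.86 to 15.87 RPKM) were present in both groups. Of 10 kidney tubule markers 3 were tested, of which 2 fell and Pax8 rose to 124.15 to 243.21 RPKM, and 2 were called higher without any 1 of the WT libraries. Their sum was 19.7 to 27.4 RPKM in the WT and 132 to 251 in the cKO libraries, and Umod was listed at 0 throughout.

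Caveolin-1 and caveolin-2 are hairpin membrane proteins that assemble into the caveolar coat, and caveolin-2 needs caveolin-1 to reach the cell surface. Cavins are cytosolic proteins that polymerise around the caveolin scaffold. Cavin1 is required for caveolae to form, while Cavin2 and Cavin3 join it as accessory subunits. Ehd2 and Pacsin2 act at the neck, where Ehd2 holds the pit at the membrane. Stromal cells, fat cells, endothelium and muscle are known for being rich in caveolae.

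The DNA just before the transcription starts is shown for the 3 members that were lower in every cKO library, because these promoters share a direction but differ in base composition. Each line gives the 250 bases before the start in RefSeq on GRCm38.p6, 5′ to 3′, and capitals mark a GC box (GGGCGG or its reverse complement) or a TATA motif (TATAAA or its reverse complement).
Cav2, chr6:17280935-17281184, plus strand: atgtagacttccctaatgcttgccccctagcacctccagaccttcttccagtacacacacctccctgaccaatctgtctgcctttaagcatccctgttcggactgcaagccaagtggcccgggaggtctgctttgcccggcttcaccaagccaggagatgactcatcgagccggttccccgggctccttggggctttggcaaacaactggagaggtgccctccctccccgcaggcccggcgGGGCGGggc
Cav1, chr6:17306085-17306334, plus strand, the first of 2 annotated starts: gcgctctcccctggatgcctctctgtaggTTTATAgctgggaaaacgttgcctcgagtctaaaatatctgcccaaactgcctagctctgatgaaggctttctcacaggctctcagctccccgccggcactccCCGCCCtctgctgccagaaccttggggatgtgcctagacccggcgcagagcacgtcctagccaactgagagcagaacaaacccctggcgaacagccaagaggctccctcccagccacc
Cavin2, chr1:51288876-51289125, plus strand: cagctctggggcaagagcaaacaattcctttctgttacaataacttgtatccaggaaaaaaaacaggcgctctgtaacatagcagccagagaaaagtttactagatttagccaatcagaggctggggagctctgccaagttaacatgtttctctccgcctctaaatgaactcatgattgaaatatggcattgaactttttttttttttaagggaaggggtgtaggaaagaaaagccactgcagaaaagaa

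The caveolin windows held more G and C than the Cavin2 window. The windows of Cav2 and Cav1 held 62.0% and 59.6% G and C with 10 CpG dinucleotides each, and that of Cavin2 held 40.4% with 2. Over the 32851 promoter windows of the same length the median was 52.4% with quartiles of 45.2% and 61.2%, and the median number of CpG was 6 with quartiles of 2 and 16. Cavin1 and Ehd2, which were higher in the cKO libraries, had 67.6% and 58.0% G and C with 12 CpG each. Of the windows shown, Cav2 lay above the upper quartile of G and C, Cav1 between the quartiles and Cavin2 below the lower one.

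A GC box stood in the windows of Cav2, the first Cav1 start, Cavin1, Ehd2 and the first of 3 Pacsin2 starts, and in 32.7% of all windows. The TATA motif was found at the first Cav1 start and in 12.4% of all windows. The TEAD motif GGAATG, searched on both strands, was found at Cavin1 and in 12.6% of all windows, and the CArG box of serum response factor at none of the windows examined for the members and in 1.47% of all. Matches are descriptions of letters, not sites of binding, and Cavin3 had no window to examine.

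Both caveolins were lower in every cKO library than in any WT library. Cav1 (chromosome 6, 17306335 to 17341452, plus strand, GRCm38) stood at 247.71, 254.54 and 278.93 RPKM across WT libraries, against 35.49, 30.09 and 86.75 RPKM across cKO libraries, in the order of replicates 1 to 3. The groups did not overlap, and cKO replicate 3 lay between the WT libraries and the other cKO libraries. The mean was 5.13-fold lower (260 ± 16.4 against 50.8 ± 31.3 RPKM, SD, n = 3 libraries per group), and 7.94-fold lower without cKO replicate 3. On the log2(RPKM + 1) scale the difference was −2.49 ± 0.37 (SE). In bulk libraries fewer cells of a type and less RNA per cell cannot be told apart.

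Cav2 (chromosome 6, 17281185 to 17289115, plus strand), the gene that prompted the list, stood at 28.9, 33.96 and 32.2 RPKM across WT libraries, against 4.38, 3.61 and 8.74 RPKM across cKO libraries. The order of the cKO libraries was that of Cav1, with replicate 3 the highest. The mean was 5.68-fold lower, 31.7 ± 2.57 against 5.58 ± 2.77 RPKM, and the log2 difference was −2.39 ± 0.27 (SE).

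The proportion between the caveolins overlapped between the groups. Cav1 stood at 8.57, 7.495 and 8.66 times the RPKM of Cav2 in WT, against 8.10, 8.34 and 9.93 times in cKO. Cav3, the muscle caveolin, was listed at 0 in WT, against 0.08, 0.07 and 0.64 RPKM in cKO, which was under the minimum for testing. Its share of all caveolin RPKM was at most 0.666%.

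The cavins parted from the caveolins and from each other. Cavin1 (chromosome 11, 100956733 to 100970887, minus strand) stood at 154.42, 148.92 and 159.87 RPKM across WT libraries, against 319.68, 293.79 and 336.92 RPKM across cKO libraries. All cKO libraries lay above the WT libraries, and the cKO libraries lay close to one another. The mean was 2.05-fold higher, 154 ± 5.48 against 317 ± 21.7 RPKM, with a log2 difference of 1.03 ± 0.07 (SE).

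Cavin2 (chromosome 1, 51289126 to 51302960, plus strand) was nearly absent from the cKO libraries. It stood at 30.62, 29.11 and 29.5 RPKM across WT libraries, against 0.05, 0 and 0.08 RPKM across cKO libraries. With its single annotated transcript of 3055 bp, these are an estimated 1332, 1133 and 1308 fragments in the WT libraries against 1.94, 0 and 5.30 in the cKO libraries. The value of cKO replicate 1 lay under the worth of 3 fragments, 0.0773 RPKM, and that of replicate 3 above it, 0.0453 RPKM, and the 0 of replicate 2 allows up to 0.0701 RPKM, limits that cover counting error only. The antisense gene 9330175M20Rik spans Cavin2 and was listed at 0 in all 6 libraries. The log2 difference of −4.88 ± 0.10 (SE) is set largely by the pseudocount of 1 RPKM, and was −7.74 with 0.1.

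Cavin3 (chromosome 7, 105480083 to 105482300, minus strand), which also binds protein kinase C delta, overlapped between the groups. Its values were 40.33, 37.38 and 38.14 RPKM across WT libraries and 47.08, 59.23 and 35.84 RPKM across cKO libraries. cKO replicates 1 and 2 lay above the WT range and replicate 3 below it. The log2 difference was 0.26 ± 0.17 (SE).

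The neck genes stood apart from the caveolins too. Ehd2 (chromosome 7, 15946958 to 15967567, minus strand) stood at 77.67, 75.29 and 77.38 RPKM across WT libraries, against 173.52, 150.16 and 101.52 RPKM across cKO libraries. The groups did not overlap, and cKO replicate 3 lay nearest to the WT libraries. The mean was 1.85-fold higher, 76.8 ± 1.3 against 142 ± 36.7 RPKM, with a log2 difference of 0.84 ± 0.19 (SE). Pacsin2 (chromosome 15, 83375607 to 83464606, minus strand) was at 46.92, 48.68 and 47.42 RPKM across WT libraries, against 49.01, 49.3 and 40.91 RPKM across cKO libraries. The groups overlapped, with a log2 difference of −0.04 ± 0.09 (SE). A pseudogene on the same strand within Pacsin2, Gm5417, reached at most 0.85 RPKM.

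**Figure D1:**
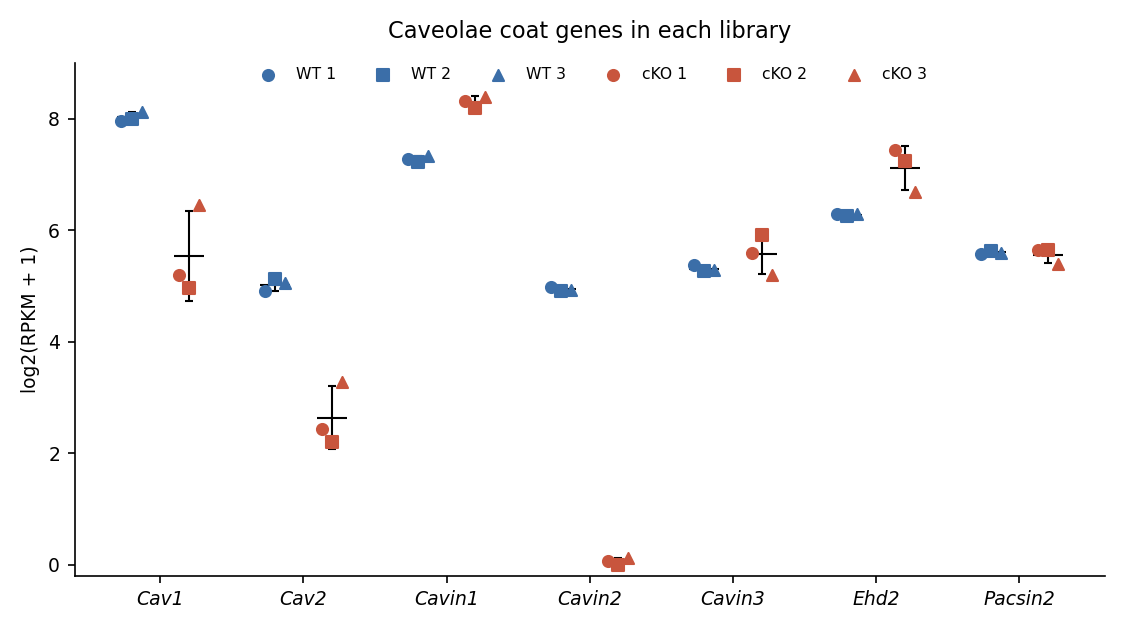
The level of each of the 7 genes on the log2(RPKM + 1) scale in each library (blue, WT; red, cKO; circle, square and triangle for replicates 1 to 3), with the mean of each group as a bar and its SD as whiskers. Cav1, Cav2 and Cavin2 lie lower in all 3 cKO libraries, Cavin1 and Ehd2 lie higher, and Cavin3 and Pacsin2 overlap.

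In all, the groups did not overlap for 5 of the 7 members, with the cKO libraries below for 3 and above for 2. Over all 12223 genes the share without overlap was 69.0%, with 29.8% below and 39.2% above. These shares are given for scale and nothing is read from them, since the contrast chose the list. The median log2 difference of the 7 was −0.04.

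The sum over the members overlapped between the groups. The summed RPKM of the 7 genes was 626.57, 627.88 and 663.44 in WT, against 629.21, 586.18 and 610.76 in cKO. Cav1 made up 40.7 ± 1.26% of that sum in the WT and 8.33 ± 5.10% in the cKO libraries, while Cavin1 went from 24.2 ± 0.466% to 52.0 ± 2.74% (SD, n = 3 each). These shares compare genes on the RPKM scale, which is per length.

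The order of levels changed accordingly. In the WT libraries it ran from Cav1 through Cavin1, Ehd2, Pacsin2 and Cavin3 down to Cav2 and Cavin2, and of neighbours in this order only Cav2 and Cavin2 overlapped. In the cKO libraries Cavin1 came first, followed by Ehd2. Cav1, Cavin3 and Pacsin2 followed with overlapping ranges, 30.09 to 86.75, 35.84 to 59.23 and 40.91 to 49.3 RPKM. Cav2 and then Cavin2 closed the order.

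Ratios within a library do not depend on how libraries were scaled. Cavin1 stood at 0.623, 0.585 and 0.573 times the RPKM of Cav1 in WT, against 9.01, 9.76 and 3.88 times in cKO. Ehd2 stood at 0.277 to 0.314 times Cav1 in WT, against 4.89, 4.99 and 1.17 times in cKO. Both ratios were higher in each cKO library, least so in replicate 3. Cavin1 to Ehd2 was 1.98 to 2.07 in WT, against 1.84, 1.96 and 3.32 in cKO.

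The list's other family members were measured outside the rule. Of the 7 remaining caveolin, cavin, EHD and PACSIN genes 5 were tested, of which 1 rose and 3 fell, beside 34.7% and 26.5% of all genes tested, with a median log2 difference of −1.45 against 0.09 over all genes. Cavin4, the cavin of striated muscle, stood at 1.81, 1.77 and 2.27 RPKM across WT libraries, against 20.57, 18.96 and 11.52 RPKM across cKO libraries. It rose 8.73-fold with a log2 difference of 2.58 ± 0.22 (SE) and a limma Benjamini-Hochberg adjusted p of 0.000134. Every cKO library lay above the WT libraries. Of 8 striated muscle markers, 4 were listed at 0 in all 6 libraries (Myod1, Myog, Ckm and Ttn), and their summed RPKM was 8.66 to 9.39 in the WT and 0.41 to 10.02 in the cKO libraries, nearly all of it from Acta1.

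The paralogs of Ehd2, which serve endosomal recycling, fell while Ehd2 was higher. Ehd1 stood at 96.85, 80.08 and 97.49 RPKM across WT libraries, against 32.04, 30.06 and 36.5 RPKM across cKO libraries, 2.78-fold lower with a limma adjusted p of 9.3e-05. Ehd4 fell 4.71-fold, from 23.19 to 27.69 RPKM in WT to 4.24 to 6.51 RPKM in cKO (limma adjusted p = 7.7e-05). Ehd3 fell 22.5-fold from 9.88 ± 0.295 to 0.44 ± 0.202 RPKM (limma adjusted p = 1.5e-05). All 3 cKO libraries lay below the WT libraries for each of these genes. Ehd3 reached the minimum for testing through the WT libraries alone.

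Ehd2 made up 36.6 to 40.02% of the summed EHD RPKM in WT and 82.6, 80.9 and 69.9% of it in cKO replicates 1 to 3. The summed EHD RPKM was 203 ± 13.1 in the WT and 180 ± 32.8 in the cKO libraries. Within the cavins, Cavin2 went from 12.8 to 13.5% of the summed RPKM to at most 0.0208%, and Cavin4 from 0.797 to 0.988% to 5.31, 5.10 and 3.00%. The summed cavin RPKM was 225 ± 6.65 in the WT and 381 ± 8.16 in the cKO libraries. Pacsin3, a paralog of Pacsin2, did not pass (22.99, 21.02 and 21.85 against 20.77, 21.18 and 12.53 RPKM; limma adjusted p = 0.235), and Pacsin1 was at most 0.02 RPKM in any library.

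**Figure D2:**
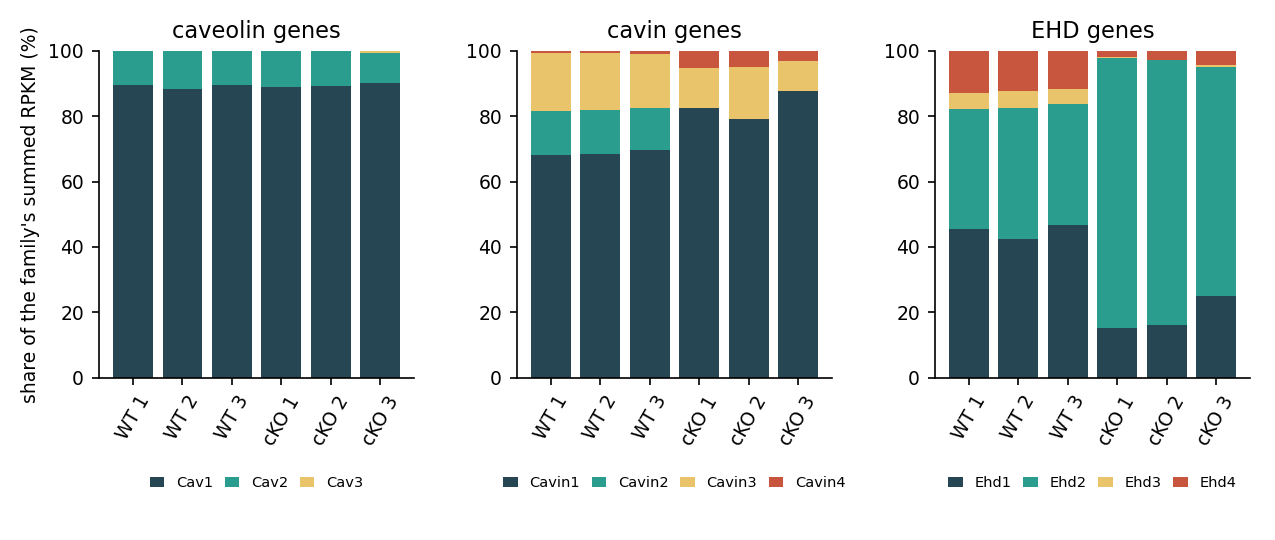
Share of each gene in the summed RPKM of its family, in percent, for the caveolins, cavins and EHD genes in each of the 6 libraries. Cav1 and Cav2 keep their shares, Cavin2 leaves the cavins of the cKO libraries and Cavin4 enters, and Ehd2 goes from at most 40.02% to at least 69.9% of the EHD genes.

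**Figure D3:**
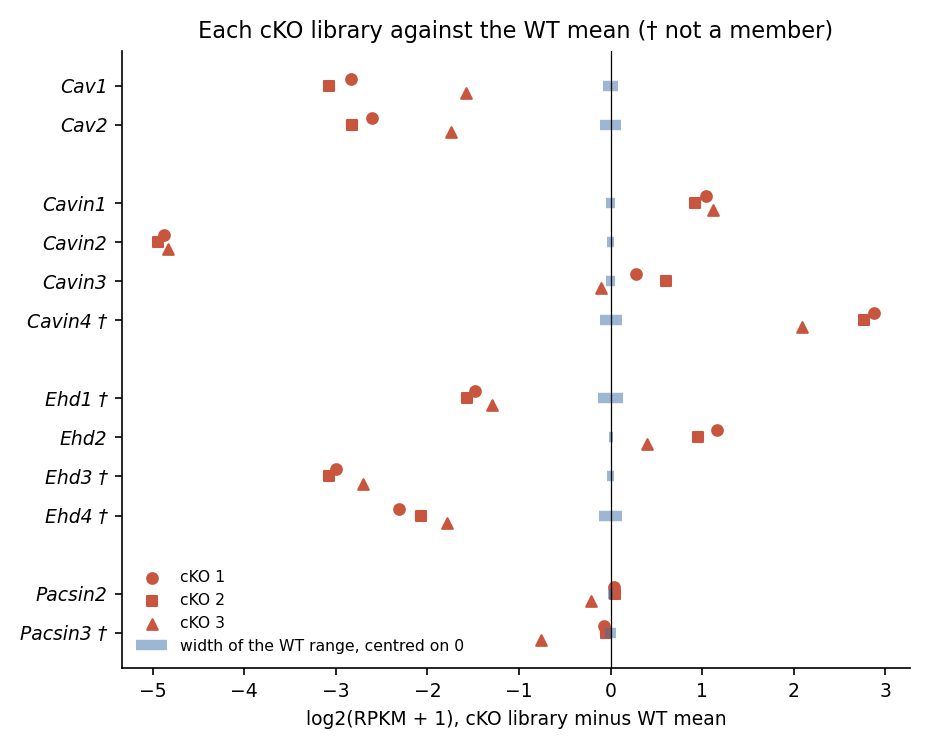
Difference of each cKO library from the WT mean on the log2(RPKM + 1) scale, for the members and the tested family genes (dagger), with the width of the WT range drawn around 0. The caveolins, Cavin2, Ehd1, Ehd3 and Ehd4 lie to the left in all 3 libraries, and Cavin1, Cavin4 and Ehd2 to the right.

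Of 15 genes for proteins that reside in caveolae or act on them 10 were tested, of which 3 rose, 3 fell and 4 did not pass, with a median log2 difference of 0.04. These counts are near the 34.7% and 26.5% called higher and lower over all genes. Flna (filamin A), the actin crosslinker that binds caveolin-1, stood at 675.16, 639.06 and 689.74 RPKM across WT libraries, against 241.7, 264.82 and 475.75 RPKM across cKO libraries. It fell 2.04-fold (limma adjusted p = 0.00795), with cKO replicate 3 nearest to the WT libraries, as for Cav1. The kinase Src, which phosphorylates caveolin-1, fell 1.89-fold from 37.4 ± 2.73 to 19.8 ± 1.45 RPKM (limma adjusted p = 0.000305).

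Flot1, a flotillin that marks another kind of membrane microdomain, rose 2.22-fold from 34.8 ± 2.14 to 77.2 ± 13.5 RPKM (limma adjusted p = 0.000488). The fatty acid transporter Slc27a1 rose 4.44-fold from 1.11 ± 0.165 to 4.94 ± 1.84 RPKM (limma adjusted p = 0.00189). Bves, a caveolin-binding membrane protein of muscle, rose from at most 0.1 RPKM to 2.68, 3.45 and 0.89 RPKM (limma adjusted p = 0.00588). It reached the minimum for testing through the cKO libraries alone. Emp2, a tetraspan membrane protein, fell by 0.38 on the log2 scale (limma adjusted p = 0.0138), a call lost without WT replicate 3 (adjusted p = 0.0601) and with each chromosome centred on its median (0.192).

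Dnm2 (dynamin 2), which cuts the neck of endocytic pits, did not pass, at 39.96, 36.47 and 38.78 RPKM across WT libraries and 53.19, 46.11 and 35.58 RPKM across cKO libraries. The insulin receptor Insr did not pass (6.16, 5.15 and 8.07 against 4.74, 4.36 and 4.81 RPKM; limma adjusted p = 0.0745), but was called lower after TMM and median-of-ratios scaling (0.0375 and 0.0394) and without WT replicate 2 (0.0372). The kinase Abl1 and the flotillin Flot2 did not pass either (limma adjusted p = 0.301 and 0.316). Without cKO replicate 3, Dnm2 and Flot2 passed (limma adjusted p = 0.0119 and 0.00788). Cd36, Nos3, Plvap, Ror1 and Popdc2 were under the minimum for testing, and Cd36 reached 0.03 RPKM at most.

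Cav2 and Cav1 are neighbours, with starts 25.2 kb apart, and the protein-coding genes within 500 kb did not share a direction. Tes, a LIM-domain protein of focal adhesions and actin fibres that starts before Cav2 at 17065149, stood at 58.91, 62.14 and 64.1 RPKM across WT libraries, against 6.46, 4.12 and 11.08 RPKM across cKO libraries. It fell 8.55-fold, with a log2 difference of −3.02 ± 0.29 (SE) and a limma adjusted p of 0.000212, and its cKO libraries had the same order as those of Cav1 and Cav2. Met, the receptor of hepatocyte growth factor, starts 182.6 kb after the start of Cav2 and rose 3.88-fold from 9.90 ± 1.17 to 38.4 ± 4.45 RPKM (limma adjusted p = 5.6e-05).

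Beyond Met, the actin capping subunit Capza2 and St7 fell 1.52-fold and 1.59-fold (limma adjusted p = 0.00295 and 0.000808). Tfec was at most 0.05 RPKM. Within the 500 kb, Met was the only gene tested that rose, between the caveolins on one side and Capza2 and St7 on the other. An antisense gene, Gm15581, spans both caveolins on the opposite strand and was listed at 0 in all 6 libraries. Whether the counting used strand is not given in the sources used here.

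**Figure D4:**
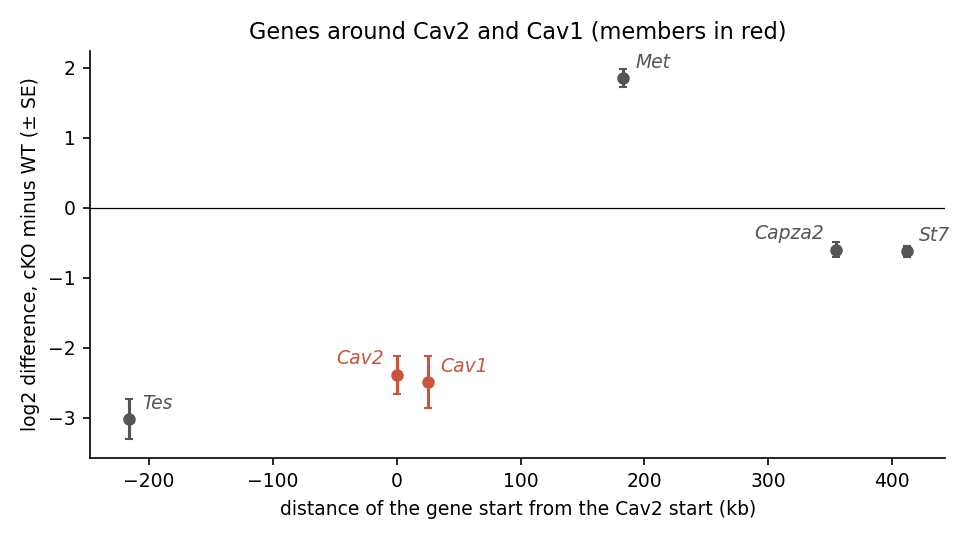
Log2 difference between cKO and WT libraries (± SE) of the tested protein-coding genes around Cav2, against the distance of their starts from that of Cav2 in kb. Tes, Cav2 and Cav1 lie between −2.39 and −3.02, Met lies at 1.85, and Capza2 and St7 lie near −0.6.

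The members that were higher lay among genes mostly called higher. Those that were lower lay among genes more often called lower than higher. Within 5 Mb of Cavin1, a window chosen with the data known, 140 of 178 tested genes were called higher and 18 lower. Over all genes these shares were 34.7% and 26.5%. The median log2 difference around Cavin1 was 0.99, close to the 1.03 of Cavin1 itself. Around Ehd2, 54 of 73 tested genes were called higher, with a median of 0.64 against the 0.84 of Ehd2, and around Cavin3 the median was 0.46 against 0.26. Around Cav2, Cav1 and Cavin2 the medians were −0.51, −0.49 and −0.49, against differences of −2.39, −2.49 and −4.88. The tested genes called lower there were 10 of 17, 10 of 18 and 14 of 27, and those called higher 2, 3 and 2. With each chromosome centred on its own median, the differences of Cavin1 and Ehd2 were 0.61 and 0.20, and those of Cav1, Cav2 and Cavin2 were −2.25, −2.14 and −4.74. The part of the surroundings in these values was not tested.

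**Figure D5:**
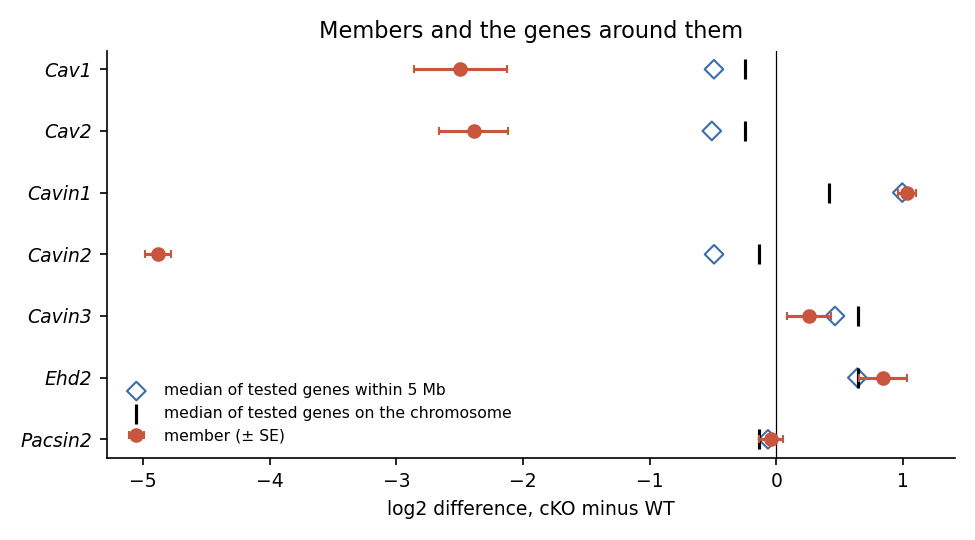
Log2 difference of each member (± SE) beside the median of the tested genes within 5 Mb and of those on the whole chromosome. Cavin1 (1.03) lies on the median of its surroundings (0.99), Ehd2, Cavin3 and Pacsin2 lie near theirs, and Cav1, Cav2 and Cavin2 lie well below theirs.

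Among the 7 members, cKO replicate 3 differed from the other cKO libraries most in the caveolins. Against the mean of replicates 1 and 2, it stood higher by 1.38 for Cav1 and 0.97 for Cav2 on the log2 scale, and its difference was −0.66 for Ehd2, −0.55 for Cavin3 and −0.26 for Pacsin2. For Cavin1 and Cavin2 it was 0.14 and 0.08. The range among WT libraries was at most 0.23 for any member. Contractile genes were higher in it too: over 12 tested genes of that list, replicate 3 stood 2.77 higher (median log2), against 0.00 over all genes tested. Smooth muscle actin, Acta2, had 68.78, 149.26 and 1532.34 RPKM over the cKO libraries and 1945 to 2145 RPKM over the WT libraries. Of the mesenchymal stromal markers, Col1a1, Cxcl12, Col3a1 and Pdgfrb stood 2.18, 2.03, 1.79 and 1.76 higher in replicate 3. Col1a2, Nt5e, Pdgfra and Prrx1 went the other way, at −0.63, −0.59, −0.30 and −0.23. The median over the 11 tested was 0.20. Over all genes tested the correlation of replicate 3 with the WT libraries on the log2(RPKM + 1) scale was 0.82, against 0.76 for the other cKO libraries. The part of these differences in its caveolin values was not tested.

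Of the 12 contractile and serum response factor genes 5 fell and 0 rose, beside 26.5% and 34.7% over all genes, a median log2 difference of −1.11. Among them, Mrtfa, the actin-sensing coactivator of serum response factor, fell 2.31-fold from 30.7 ± 2.53 to 13.3 ± 0.72 RPKM (limma adjusted p = 0.000114). The number called lower was 12 without cKO replicate 3, 2 without WT replicate 1 or 3, and 3 without WT replicate 2, cKO replicate 1 or cKO replicate 2. Of 10 genes driven by or acting in the YAP and TEAD pathway 3 rose and 3 fell, near the 34.7% and 26.5% over all genes, with a median of 0.09. The list mixes factors of the pathway, such as Yap1, which rose 1.25-fold (limma adjusted p = 0.0117), with genes it drives. Ankrd1 fell 7.69-fold, from a WT mean of 368 RPKM to 7.2, 16.12 and 120.15 RPKM across cKO libraries (limma adjusted p = 0.0102). Ccn2 fell 6.58-fold, from a WT mean of 675 RPKM to 15.13, 30.87 and 261.55 RPKM (limma adjusted p = 0.0144). Lats2 fell 1.46-fold (limma adjusted p = 0.0215). By limma 0 of the 10 were called higher without WT replicate 1 or 3, after TMM or median-of-ratios scaling or with chromosomes centred, and 1 without WT replicate 2. The number called lower was 1 without WT replicate 1, where Ccn2 and Lats2 stood above the threshold (limma adjusted p = 0.0506 and 0.0735).

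Genes of the clathrin coat, the other main endocytic coat, were called higher in 9 of 14 cases and lower in 2, beside 34.7% and 26.5% over all genes, a median log2 difference of 0.43. Ap2a1, a subunit of the clathrin adaptor, rose by 0.52 on the log2 scale, a call lost with chromosomes centred (−0.13, limma adjusted p = 0.269). The clathrin light chain Clta rose 1.87-fold from 148 ± 6.46 to 276 ± 36.7 RPKM (limma adjusted p = 0.000544), and the adaptor Eps15 rose 2.6-fold from 9.94 ± 1.54 to 25.8 ± 2.63 RPKM (limma adjusted p = 0.000267). The 2 called lower were Picalm, which fell 1.94-fold from 83.5 ± 4.26 to 43.1 ± 11.6 RPKM (limma adjusted p = 0.00327), and the heavy chain Cltc, which fell 1.26-fold (limma adjusted p = 0.0149). The number called higher was 5 after median-of-ratios scaling and 4 with chromosomes centred, and the number called lower was 4 with chromosomes centred and 1 without WT replicate 2.

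Caveolae depend on cholesterol and sphingomyelin. Of 17 tested genes of their synthesis and transport 7 rose and 5 fell, with a median of 0.24. These counts too are near the 34.7% and 26.5% over all genes. The lipoprotein receptor Scarb1 fell 3.1-fold (limma adjusted p = 4.6e-05). The cholesterol exporter Abca1 rose 7.14-fold from 0.80 ± 0.0436 to 5.71 ± 0.561 RPKM (limma adjusted p = 5.1e-05), and reached the minimum for testing through the cKO libraries alone. The number called higher was 4 without WT replicate 1 or 2, and the number called lower was 8 after TMM or median-of-ratios scaling.

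The genes whose profile over the 6 libraries lay nearest to Cav2 were not caveolar. By the root mean square difference of log2(RPKM + 1), each gene taken relative to its WT mean, the nearest of 10901 protein-coding genes was Nabp1, a single-stranded DNA binding protein, at 0.10. It stood at 27.43, 26.7 and 26.07 RPKM across WT libraries, against 3.29, 2.63 and 7.45 RPKM across cKO libraries. Mmp19 (0.11), Rps6ka2 (0.12), Asap1 (0.12) and Gdnf (0.14) followed, and Cav1 would have been the seventh at 0.17. The nearest to Cav1 were Dse, an enzyme of dermatan sulfate synthesis, at 0.10, then Nabp1, Gdnf, the ceramide synthase Cers6 and Calhm5, with Cav2 in rank 8. These are distances over libraries that share the group difference, and they carry no test.

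Marker genes of cell types rich in caveolae were examined beside the members. Of 10 endothelial markers none was tested and 9 stayed under 1 RPKM in every library, with a sum of 0.16 to 0.51 RPKM in the WT and 1.24 to 2.48 in the cKO libraries, Tie1 and Cldn5 being listed at 0 throughout. Of 8 adipocyte markers 4 were tested and fell, and the sum went from 483 to 502 RPKM in the WT to 2.77 to 6.44 in the cKO libraries, while Lep was listed at 0 and Adipoq and Plin1 reached at most 0.57 and 0.17 RPKM.

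Markers of other tissues were measured as well. Of 10 epithelial markers 1 was tested, Krt19, which fell, beside 26.5% of all genes tested. The sum was 12.6 to 14.9 RPKM in the WT and 2.04 to 6.06 in the cKO libraries. Cldn4 and Grhl2 were listed at 0 throughout, and Cdh1 and Epcam were at most at 0.12 and 0.29 RPKM. Of 10 blood markers 1 was tested and rose (Cd68), beside 34.7% of all genes tested. The sum was 2.54 to 3.78 RPKM in the WT and 6.53 to 10.2 in the cKO libraries, with Ptprc at most at 0.03 RPKM and Cd3e listed at 0. The part of these markers, and of the mesenchymal and kidney tubule markers, in the caveolar values was not tested.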

How the data were processed

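The cells' RNA was extracted with TRIzol and turned into stranded mRNA libraries sequenced as 151 bp pairs, per the labels' protocols. The authors deposited RPKM values of 6 libraries, 3 per group, made, per the submitters' processing notes, with RSEM 1.3.1, STAR 2.7.1a and cutadapt 2.8 on GRCm38. The annotation behind the values is not given in the sources used here. GENCODE M21 named 55144 of 55471 identifiers. Steps between low values gave an estimate of depth: 88.5 to 95.4% of them were whole fragments to within 0.2, a tolerance that random values meet in 40%.

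Genes whose mean reached 1 RPKM were fitted on log2(RPKM + 1) with limma 3.58.1 (R 4.3.3, variance prior following the mean, genotype as the only term, 2-sided, Benjamini-Hochberg over 12223 genes). In 20 simulations with 200 changed genes each, 5.71% of the calls were false. Of changes of 0.5 and 1 on the log2 scale, 19.1% and 72.4% were recovered. In the data 61.2% of genes were called, so these simulations do not cover a contrast this wide. Libraries of a group differed in the values of 18670 or more genes, so none repeated another.

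The members and lists were chosen with earlier results of these data known. The genes named are the members, the other family and partner genes, up to 4 genes of every other list with the smallest p, genes within 500 kb of Cav1 or Cav2, and the 5 nearest profiles to each. Markers near 0 were named after their values were seen. So were Acta2, Cltc, Col1a1, Col3a1, Cxcl12, Nt5e, Pdgfra, Pdgfrb, Prrx1 and Twist1 where that rule leaves them out. Promoter windows come from RefSeq on GRCm38.p6 and matched 6 members. Alternatives covered pseudocounts, filters, scalings, variance models, a replicate block, chromosome centring and each library left out. The labels name no batch. Summaries and figures used Python 3.11.15 with pandas 2.3.3, matplotlib 3.10.9 and numpy 2.4.6.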

Additional observations from a re-analysis of the deposited data

How the results depend on the processing

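Cav1 and Cav2 kept their direction under all 16 alternatives. Nothing is read from this, since for many of them the outcome was set in advance. Filters, the variance prior and a replicate block left the difference itself unchanged. Leaving out 1 library cannot reverse groups that do not overlap, and the fall of Cav2 chose the list. Leaving out each library gave −2.95 to −2.21 for Cav1 and −2.71 to −2.17 for Cav2, the lowest value of each being that without cKO replicate 3, where the fold of Cav1 went from 5.13 to 7.94. The log2 difference of Cavin2 was −7.74 and −5.80 with pseudocounts of 0.1 and 0.5, −4.94 after TMM and after median-of-ratios scaling, and −4.74 with chromosomes centred. Cavin1 stood at 0.91 and 0.92 after these scalings and at 0.61 with chromosomes centred. Chromosome centring also gave −0.38 for Cavin3, 0.20 for Ehd2 and 0.10 for Pacsin2, and the scalings gave −0.16 and −0.15 for Pacsin2. The cause was not tested, except that a pseudocount sets a value near 0 by construction. With a minimum mean of 5 RPKM, 2 other caveolar genes were called higher, because Bves and Slc27a1 were no longer tested. Among other named genes, chromosome centring ended the calls of Ap2a1 and Yap1 and gave values on the other side of 0 that did not pass (−0.13 and −0.0229, limma adjusted p = 0.269 and 0.82). Yap1 also lost its call after TMM and median-of-ratios scaling and without WT replicate 1 or 3 (limma adjusted p = 0.0507 to 0.0635). Leaving out each library gave 3504 to 4483 genes higher and 2626 to 3623 lower. The replicate numbers did not pair the libraries (r of same-numbered deviations −0.02 to 0.05), and with a replicate block 3811 genes were called higher and 2938 lower, and 4 and 6 of the other caveolar genes, as without it. Depth limits Cavin2 in the cKO libraries, where it rests on fewer than 6 fragments per library.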
